A study of Mus musculus with 52 samples.

Results

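Of 24421 genes counted in kidney epithelial cells carrying homozygous edits of Wdr34 or Wdr60, 7 are described here clone by clone: Zdhhc14, Elmod1, Elfn1, Fam73a, Npr2, Pitx1 and Tmem185b. They were chosen because earlier tests of these same libraries called them lower in mutants of both ciliated and non-ciliated cells. Elmod1 and Zdhhc14 are also named by the study. The contrast of mutants with controls therefore chose the genes, and its values are given as a description without a test. The study asked how faulty dynein-2 intermediate chains change the transcriptome of cells with and without a primary cilium.

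RNA was sequenced from Cilia-APEX-IMCD3 cells, a mouse inner medullary collecting duct line, from 13 clones, each sequenced as 4 technical replicates, which gives 52 libraries. Ciliated cells comprised 3 mutant clones (the Wdr60 clone and Wdr34 clones 1 and 3) and 4 control clones (A4, D8, G7 and H12). Non-ciliated cells comprised 2 mutant clones (1 Wdr34 and 1 Wdr60 clone) and 4 control clones (1, 2, 3 and AB). In the study's methods all lines had received a cytosine base editor. There, controls were transfected with an empty guide vector, every line grew from a single cell, and every mutant line is homozygous for its intended edit. Titles of the other non-ciliated clones begin with BE, whereas those of control AB do not, and how AB was made is not stated. The study also found unintended heterozygous base changes in the Wdr60 clone and in a Wdr34 clone. That Wdr34 mutant was obtained later, and the study left it out of the non-ciliated cells, so the non-ciliated Wdr34 clone is its other Wdr34 mutant. The labels do not say whether this is clone 1 or 3. The study set the ciliated mutants against 3 control clones, whereas 4 are used here. The labels do not give the alleles or say which control clones of the 2 states are the same line, so control clones were not matched between states. The methods count 4 control and 3 mutant clones over both states, the latter with a single Wdr60 line, so lines recur among the 13, which are clones as grown and sequenced in 1 state. In the study's methods ciliated cells were kept in low-serum medium, whereas the labels give 10% serum for all libraries. Cilia, serum and time of sequencing cannot be told apart.

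Wdr34 and Wdr60 encode the intermediate chains of dynein-2, the motor that carries cargo from the tip of the cilium back to its base. The 7 genes do not belong to 1 pathway. Zdhhc14 encodes a palmitoyltransferase, Elmod1 a GTPase-activating protein for Arf-family GTPases, and Fam73a (Miga1, mitoguardin 1) a mitochondrial outer membrane protein that promotes fusion. Npr2 encodes the guanylyl cyclase receptor of C-type natriuretic peptide, a signal known for long bone growth. Elfn1 is best known as a synaptic adhesion protein that binds group III metabotropic glutamate receptors, and Pitx1 as a homeodomain transcription factor of the hindlimb. Tmem185b encodes a multi-pass membrane protein.

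The genes lie on 7 different chromosomes. In the RefSeq annotation of GRCm38.p6, Tmem185b spans chr1:119526154-119528983, Fam73a chr3:152273459-152340436 and Npr2 chr4:43629015-43651437. Elfn1 spans chr5:139907591-139974725, Elmod1 chr9:53911457-53975428, Pitx1 chr13:55825044-55836190 and Zdhhc14 chr17:5492562-5753891. Promoter sequence from RefSeq was at hand for 3 of the 7 genes. The 250 bases before their listed start sites are shown so that genes called low together can be compared in sequence, and capitals mark any of 7 searched motifs. Tmem185b is read from chr1:119525904-119526153, Npr2 from chr4:43631685-43631934 and Elfn1 from chr5:139907616-139907865, all on the plus strand and written 5′ to 3′. The Npr2 and Elfn1 windows lie within the spans given above, before the start of a listed transcript.
Tmem185b: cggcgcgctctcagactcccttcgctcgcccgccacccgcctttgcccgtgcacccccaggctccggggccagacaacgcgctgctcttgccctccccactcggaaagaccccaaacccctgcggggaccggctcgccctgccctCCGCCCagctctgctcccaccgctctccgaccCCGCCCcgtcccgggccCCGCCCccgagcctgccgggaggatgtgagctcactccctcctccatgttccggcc
Npr2: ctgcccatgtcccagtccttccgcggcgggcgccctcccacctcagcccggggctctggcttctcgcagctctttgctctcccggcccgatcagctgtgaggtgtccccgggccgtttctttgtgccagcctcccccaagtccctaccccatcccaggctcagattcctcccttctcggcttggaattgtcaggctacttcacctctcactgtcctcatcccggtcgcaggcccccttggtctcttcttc
Elfn1: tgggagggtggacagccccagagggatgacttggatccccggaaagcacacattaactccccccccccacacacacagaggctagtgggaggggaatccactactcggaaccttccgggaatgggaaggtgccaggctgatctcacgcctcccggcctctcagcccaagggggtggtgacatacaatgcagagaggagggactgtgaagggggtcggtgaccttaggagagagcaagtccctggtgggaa

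Motifs were searched on both strands. The first was the Sp1 box (GGGCGG), which is rich in G and C. CCAAT and TATAAA stand for well-known boxes of core promoters. CACGTG is an E-box, bound by many helix-loop-helix factors. TGACG is taken from the cAMP response element. GTTGCC belongs to the X-box, which RFX factors bind at ciliary genes. CCACCCA is the core of the Gli site of Hedgehog signalling. None of these motifs contains another. The Sp1 box was found 3 times in the Tmem185b promoter, in each case as CCGCCC, beginning at positions -105, -73 and -56 from the start. It was found in 32.7% of 32851 promoters of this length. None of the 7 motifs was found in the Npr2 or Elfn1 windows. Over all promoters the other 6 were found in 33.8% (CCAAT), 12.4% (TATAAA), 6.02% (CACGTG), 17.8% (TGACG), 10.4% (GTTGCC) and 8.11% (CCACCCA). GC content was 74.4%, 64.4% and 60.8% in the order printed, with 25, 13 and 6 CpG dinucleotides. The 3 windows thus differed in composition.

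Counts were scaled by TMM (trimmed mean of M values) within each state and are given as CPM, counts relative to the scaled size of the library, as the mean ± SD of the 4 libraries of a clone. Library totals were 14816218–28084979 counts, and most members were read from few of them. Replicate libraries differed more than sampling noise allows (chi-square per degree of freedom 1.99–104, median 5.47, 78 pairs). Tests that use libraries as samples therefore measure the spread of technical libraries, not of independent clones. Calls required that the p of edgeR's 2-sided quasi-likelihood F test, adjusted by Benjamini-Hochberg (BH), was under 0.05 and that the log2 fold change reached 1 in either direction.

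Some clones stood apart in markers of the cell type. Cdh1, the E-cadherin gene, was at 15.0 ± 3.07 CPM (SD, n = 4) in ciliated control G7, against 630 to 660 CPM in the other 3 ciliated controls and 309 to 616 CPM in the mutants. It was at 4.13 ± 0.564 CPM in non-ciliated control 2, against 235 to 382 CPM in the other 5 non-ciliated clones. The keratin gene Krt8 had its lowest level of each state in the same 2 clones, 27.3 and 40.2 CPM, and was at 78.7 CPM in ciliated Wdr34 clone 3. Of 17 collecting duct markers, 10 exceeded 1 CPM in some ciliated clone and 11 in some non-ciliated clone. Pax8 (145–435 CPM) and Cdh16 (150–874 CPM) were present in all 13 clones. Aqp2, the vasopressin-regulated water channel, reached at most 0.0153 CPM, and Aqp4, Avpr2, Scnn1b, Hoxd10 and Elf5 also stayed under 1 CPM in every clone. Summed fibroblast markers were at 1.36–2.50 CPM in ciliated controls and 2.34–31.97 CPM in ciliated mutants, where Dcn alone reached 29.9 CPM in Wdr34 clone 3. In non-ciliated cells they were at 3.28–5.40 CPM in controls and 2.70–3.70 CPM in mutants. Endothelial markers stayed at or under 0.19 CPM, and of the immune markers, which summed to 0.880–5.28 CPM, Cd3e was at 0. The part of these differences in the levels below was not tested, and values without G7 or control 2 are given for Elfn1, Npr2 and Tmem185b.

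Wdr34 and Wdr60 themselves do not check the labels, since the edits change bases and need not lower the mRNA. Wdr34 was at 22.3–50.8 CPM in the 7 ciliated clones and Wdr60 at 20.9–26.3 CPM. In non-ciliated cells they were at 21.2–31.3 and 19.5–29.8 CPM. Neither was called between mutants and controls in either state.

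Zdhhc14 was the only one of the 7 genes whose mutant clones lay below every control clone in both states. In ciliated cells the controls were at 3.31 ± 0.444 (A4), 1.78 ± 0.585 (D8), 1.58 ± 0.405 (H12) and 1.46 ± 0.353 CPM (G7) (SD, n = 4 libraries). The mutants were at 0.940 ± 0.446 (Wdr34 clone 1), 0.912 ± 0.247 (Wdr60 clone) and 0.685 ± 0.224 CPM (Wdr34 clone 3). Every mutant mean was lower than every control mean, by 1.55-fold between the nearest pair, but the libraries of those 2 clones overlapped, and 9 of 12 mutant libraries were below all control libraries.

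In non-ciliated cells Zdhhc14 was at 4.86 ± 0.828 (control 1), 4.75 ± 0.644 (control 2), 2.84 ± 0.523 (control 3) and 2.40 ± 0.608 CPM (AB). The Wdr34 clone was at 1.54 ± 0.556 CPM and the Wdr60 clone at 0.722 ± 0.250 CPM. The clone means again did not overlap, with 1.56-fold between AB and the Wdr34 clone, and 6 of 8 mutant libraries were below all control libraries. The control mean was 2.40-fold the mutant mean in ciliated and 3.28-fold in non-ciliated cells, and the log2 fold changes were -1.26 (SE 0.23) and -1.70 (SE 0.28). Without control A4, the highest ciliated control, the log2 fold change was -0.92 and thus under the size limit.

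Elmod1 was low in all ciliated mutants, but it was low in a control of non-ciliated cells too. Its ciliated control levels were 4.09 ± 0.418 (D8), 0.605 ± 0.263 (H12), 0.362 ± 0.152 (A4) and 0.344 ± 0.117 CPM (G7). The mutant levels were 0.123 ± 0.050 (Wdr34 clone 3), 0.0702 ± 0.140 (Wdr34 clone 1) and 0.0148 ± 0.030 CPM (Wdr60 clone). Clone means did not overlap, although these mutant levels rest on 9, 5 and 1 counts over 4 libraries, and the 5 counts of Wdr34 clone 1 were all in 1 library. Ciliated Elmod1 did not pass the expression filter, and without the filter its log2 fold change was -4.13 (SE 0.73). Control D8 held 75.7% of the summed control level, and without D8 the controls were 6.31-fold the mutants, against 19.5-fold with it. By library, 10 of 12 mutant libraries were below all control libraries.

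In non-ciliated cells Elmod1 was at 10.8 ± 0.633 (control 3), 1.72 ± 0.375 (control 2) and 1.40 ± 0.359 CPM (control 1). Control AB, at 0.0642 ± 0.077 CPM, was lower than the Wdr34 clone, at 0.564 ± 0.282 CPM. It was as low as the Wdr60 clone, at 0.0734 ± 0.056 CPM, with 5 counts over 4 libraries in each. The groups therefore overlapped. Without AB both mutants were below all controls, and without control 3 the controls were 3.33-fold the mutants in place of 11.0-fold.

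Elfn1 varied widely among the controls of ciliated cells. It was at 27.3 ± 5.88 (G7), 9.19 ± 1.04 (A4), 1.32 ± 0.477 (D8) and 0.336 ± 0.177 CPM (H12), an 81.2-fold range. The mutants were at 1.25 ± 0.675 (Wdr60 clone), 0.881 ± 0.378 (Wdr34 clone 3) and 0.163 ± 0.088 CPM (Wdr34 clone 1). H12 was below 2 of the 3 mutants, and D8 overlapped the Wdr60 clone in its libraries. G7, the clone with little Cdh1, held 71.6% of the summed control level. Without G7 the controls were 4.73-fold the mutants instead of 12.5-fold.

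The non-ciliated controls held Elfn1 at 34.97 ± 2.87 (control 2), 18.6 ± 1.23 (control 1), 7.15 ± 0.747 (control 3) and 1.06 ± 0.514 CPM (AB). The Wdr60 clone was at 1.01 ± 0.576 CPM and the Wdr34 clone at 0.250 ± 0.102 CPM. Both mutant means were below all controls, but AB and the Wdr60 clone differed by only 1.05-fold and their libraries overlapped. The controls were 24.5-fold the mutants, and 14.2-fold without control 2, the other clone with little Cdh1.

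Fam73a was above 1 CPM in 3 controls of each state, and nearly absent from the remaining control as well as low in the mutants. Ciliated controls D8, H12 and G7 were at 2.40 ± 0.602, 2.15 ± 0.472 and 1.63 ± 0.317 CPM, whereas control A4 was at 0.0425 ± 0.055 CPM, or 3 counts in 4 libraries. The mutants were at 0.427 ± 0.377 (Wdr34 clone 3), 0.0907 ± 0.080 (Wdr34 clone 1) and 0.0418 ± 0.052 CPM (Wdr60 clone, also 3 counts). A4 was thus as low as the lowest mutant, and without A4 the 3 mutants were below all controls. With A4 the controls were 8.33-fold the mutants.

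Non-ciliated controls 3, 2 and AB held Fam73a at 3.67 ± 0.328, 3.65 ± 0.668 and 1.21 ± 0.443 CPM. Control 1 had 0 counts in all 4 libraries, which allows up to 0.0423 CPM (3 counts over the clone, counting error only). The Wdr34 clone was at 0.144 ± 0.065 CPM and the Wdr60 clone at 0.0449 ± 0.058 CPM, both above control 1 and below the other 3 controls. Control 1 was at least 50.4-fold lower than the mean of the 4 controls, itself included, and without it both mutants were below all controls.

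Npr2 was the member read most deeply, with 344 to 6038 counts per clone, and it missed separation in each state by a single pair of clones. Ciliated controls were at 97.6 ± 6.69 (D8), 53.8 ± 15.9 (A4), 41.9 ± 1.71 (H12) and 28.1 ± 2.32 CPM (G7). Wdr34 clone 1 was at 29.9 ± 1.73 CPM, above G7, with the Wdr60 clone at 21.2 ± 2.66 and Wdr34 clone 3 at 14.3 ± 0.804 CPM. Libraries of Wdr34 clone 1 and G7 overlapped. Without G7 all mutants were below all controls, with a log2 fold change of -1.56, and without D8 the log2 fold change was -0.92 in place of -1.34 (SE 0.24).

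In non-ciliated cells Npr2 was at 34.7 ± 1.91 (control 2), 26.8 ± 0.478 (control 3), 17.6 ± 2.38 (control 1) and 12.56 ± 2.16 CPM (AB). The Wdr34 clone was at 12.57 ± 1.45 CPM and the Wdr60 clone at 5.01 ± 0.969 CPM. The Wdr34 clone and AB could not be told apart, while the Wdr60 clone was below all controls. The log2 fold change of -1.38 (SE 0.28) was -0.86 when the Wdr60 clone and -2.19 when the Wdr34 clone was left out, and -1.12 without control 2.

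Pitx1 was not read at all in 4 of the 5 mutant clones. These 4 include the single Wdr60 line in both states, so they are fewer lines than clones. Among ciliated mutants, Wdr34 clone 1 and the Wdr60 clone had 0 counts in all libraries, at least 41.7-fold and 45.0-fold lower than the control mean of 1.84 ± 2.04 CPM (SD, n = 4 clones), of which A4 held 65.5%. Against the lowest control they were at least 9.96-fold and 10.8-fold lower. Wdr34 clone 3 was at 0.845 ± 0.090 CPM. Controls A4, G7, H12 and D8 were at 4.83 ± 1.23, 1.49 ± 0.144, 0.613 ± 0.114 and 0.441 ± 0.271 CPM. Wdr34 clone 3 was therefore above 2 of the 4 controls, and without it the remaining mutants were below all controls.

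Both non-ciliated mutants had 0 Pitx1 counts in their 8 libraries, against 14.1 ± 3.83 (AB), 2.53 ± 0.395 (control 1), 0.738 ± 0.074 (control 3) and 0.449 ± 0.10 CPM (control 2). This was the only case in which every mutant library was below every control library. Over the 8 libraries the level was at least 202-fold lower than the control mean of 4.44 CPM and at least 20.4-fold lower than control 2. AB held 79.1% of the summed control level. The lowest control still had 34 counts in 4 libraries.

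Tmem185b showed no mutant clone below all controls in either state, although its control mean was 17.8-fold the mutant mean in ciliated and 6.11-fold in non-ciliated cells. Without D8, which held 66.6% of the ciliated control sum, the ratio was 7.91. Ciliated controls were at 16.98 ± 0.603 (D8), 4.74 ± 0.625 (H12), 3.64 ± 0.422 (A4) and 0.114 ± 0.063 CPM (G7). The mutants were at 0.723 ± 0.087 (Wdr34 clone 1), 0.237 ± 0.087 (Wdr34 clone 3) and 0.114 ± 0.097 CPM (Wdr60 clone). G7 was as low as the lowest mutant, and without G7 the groups did not overlap. The log2 fold change was -4.14 (SE 0.74), and -4.55 without G7.

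Non-ciliated controls AB, 3 and 1 held Tmem185b at 8.01 ± 0.506, 7.74 ± 1.20 and 2.52 ± 0.582 CPM. Control 2 was at 0.170 ± 0.115 CPM, below the Wdr34 clone (1.20 ± 0.130 CPM) and the Wdr60 clone (0.310 ± 0.071 CPM). Without control 2 both mutants were below all controls, and the log2 fold change was -3.01 in place of -2.61 (SE 0.73). The 2 controls that nearly lacked Tmem185b, G7 and 2, were those with little Cdh1.

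**Figure D1:**
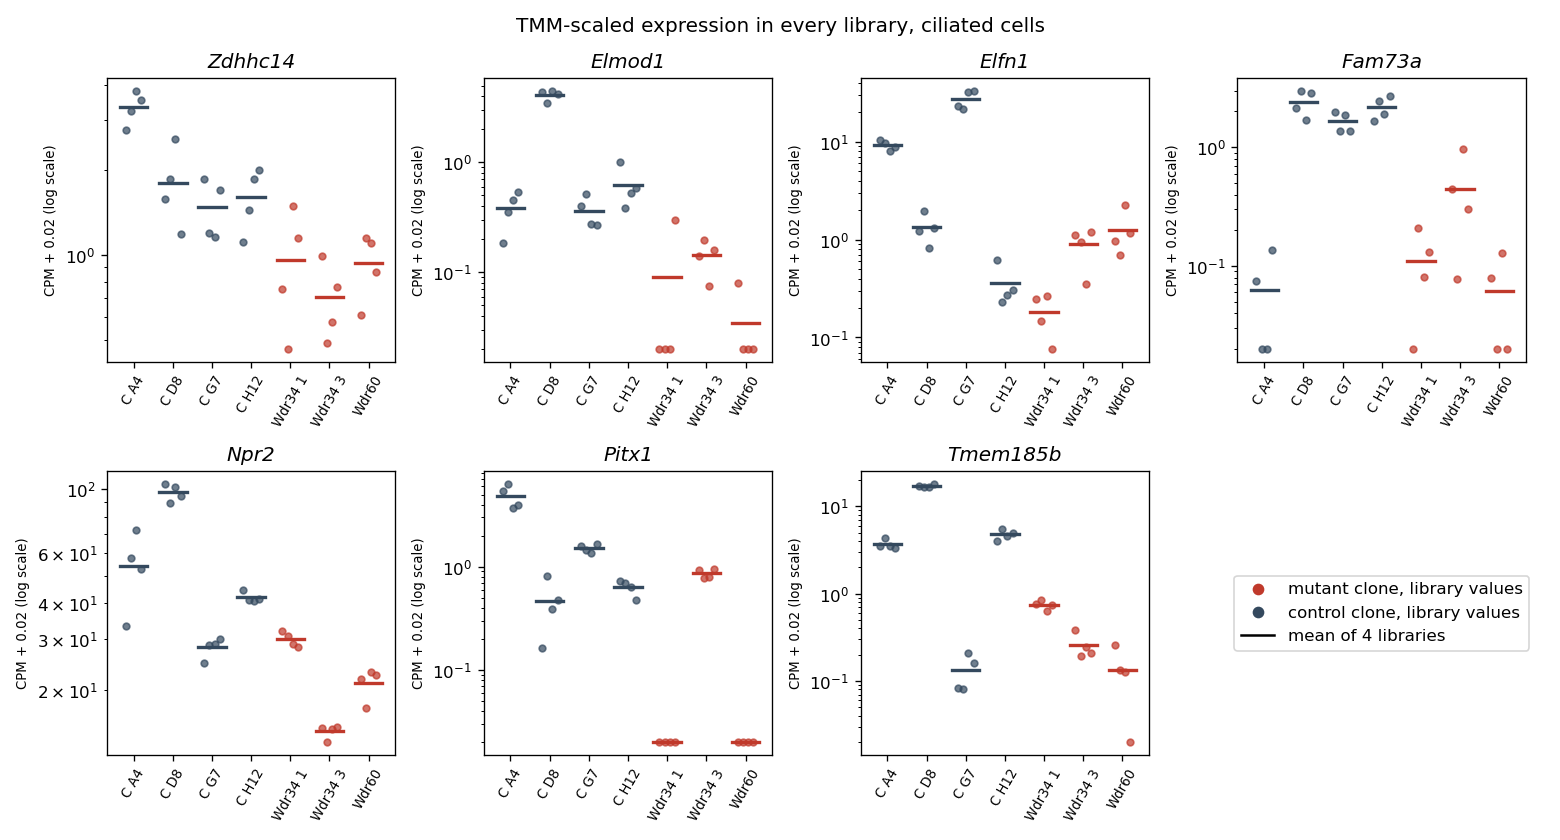
TMM-scaled CPM plus 0.02 on a log axis in each library of the 7 ciliated clones (points; C marks a control), with the mean of 4 libraries as a bar. Zdhhc14 and Elmod1 are the panels in which all 3 mutant means lie below all 4 control means.

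**Figure D2:**
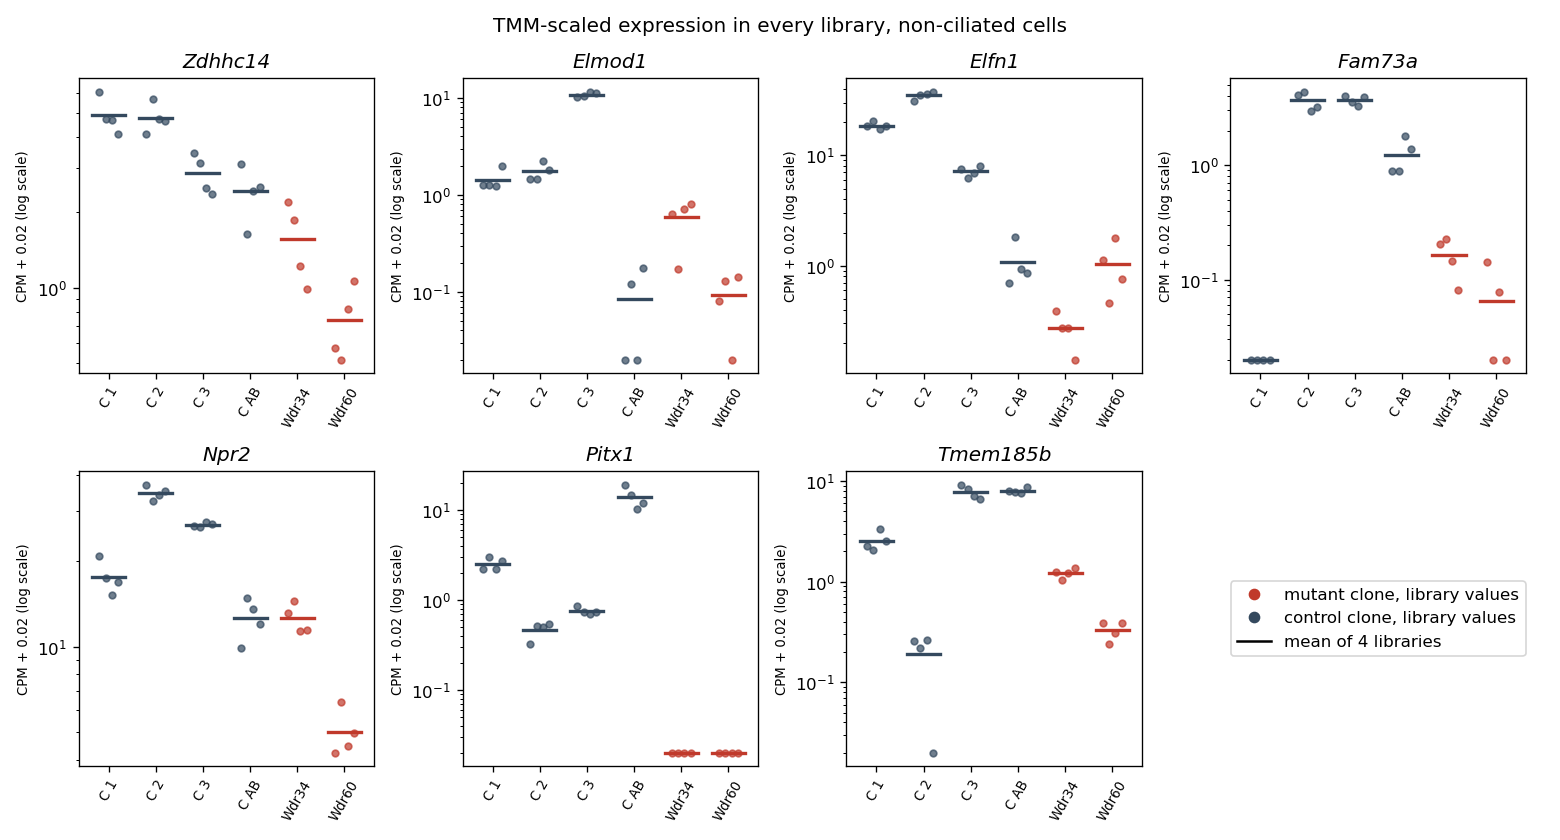
The same for the 6 non-ciliated clones. Control 1 lacks Fam73a, control 2 nearly lacks Tmem185b, control AB nearly lacks Elmod1, and both mutants have no Pitx1 counts.

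Counted over clone means, all ciliated mutants were below all controls for 2 members (Zdhhc14 and Elmod1), and all non-ciliated mutants for 3 (Zdhhc14, Elfn1 and Pitx1). Elmod1 did not pass the filter in ciliated cells, so 1 of 6 filtered members had this order there, 3 of 7 in non-ciliated cells, and 1 of 6 in both. Among all genes tested the same order was found in 0.929% of 11950 genes in ciliated and 6.12% of 12012 in non-ciliated cells, and in both states together in 0.205% of 11709. Of the 5 mutant clones, the number below all controls of their state was 5 for Zdhhc14, 4 for Pitx1, 3 each for Elmod1, Elfn1 and Npr2, 1 for Fam73a and 0 for Tmem185b. The methods count only 3 mutant lines, so a line grown in both states is counted in each, and these are not numbers of independent lines. The 1 for Fam73a is the ciliated Wdr60 clone, which had 3 counts, as control A4 did, so it is close to a tie. Since the members were chosen on this contrast, nothing is read from the excess over these shares. Compared library by library, the counts fell to 0 members in ciliated and 1 (Pitx1) in non-ciliated cells.

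The calls that the choice rests on were met by 6 of 6 members tested in ciliated cells, where 0.226% of all genes were called lower, and by 7 of 7 in non-ciliated cells, where 2.57% were. In both states together, 14 of 11709 genes (0.12%) were called lower, 6 of them members. The other 8 are not described here. The smallest change inside the limit among members was that of Zdhhc14 in ciliated cells, and the nearest gene outside it was Arid3b, with log2 fold changes of -0.97 and -1.07. With the libraries of each clone summed, so that the clone is the sample, 0 members were called in either state by the same edgeR test, as were 0 of all 13243 genes in ciliated and 0 of all 13406 in non-ciliated cells. At an unadjusted p under 0.05 that fit gave 6 of 7 members beside 148 of 13243 genes in ciliated cells, and 4 of 7 beside 582 of 13406 in non-ciliated cells. These counts come from the contrast that chose the genes and are not evidence for them.

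Leaving out a clone turned the direction of no member that could be fitted (Elmod1 in ciliated cells was not tested). The log2 fold change of Elfn1 in ciliated cells ranged from -4.17 to -2.22, that of Tmem185b from -5.14 to -2.98 and that of Fam73a from -4.44 to -2.55. Pitx1 was at -1.57 without control A4, against -2.67 with all clones, and without Wdr34 clone 3 no mutant library held a Pitx1 count. In non-ciliated cells that of Elmod1 ranged from -5.45 to -1.74, the smaller size without control 3. The sizes of these members thus moved with single clones. Their sign was fixed by the choice of the genes, and nothing is read from it.

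**Figure D3:**
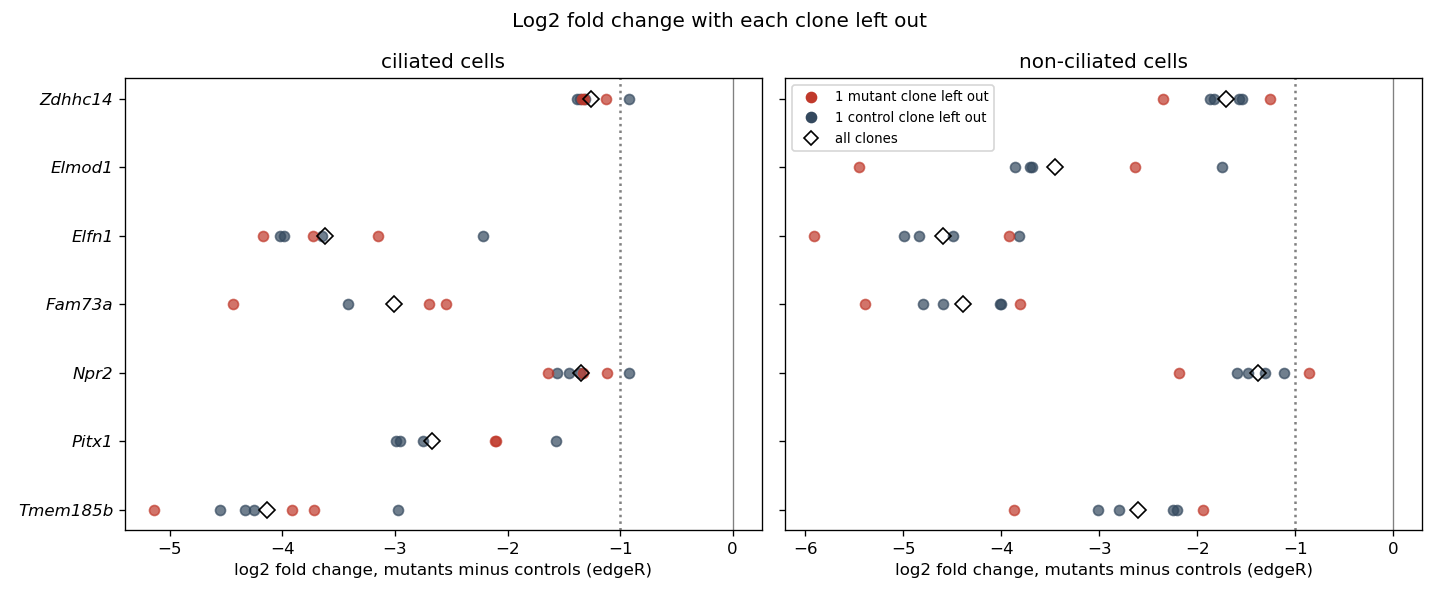
Log2 fold change of mutants against controls (edgeR) with all clones (diamonds) and with 1 clone left out (points, coloured by the status of that clone); the dotted line marks -1. Elmod1 in ciliated cells did not pass the filter, Fam73a did not in some ciliated fits, and fits in which every mutant library has 0 Pitx1 counts are left out.

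The control clones differed from each other in the same genes. The choice did not use this contrast, but it used the same control libraries, in which a single very high clone raises the control mean. The shares over all genes beside these counts are therefore given without a reading. Each control was tested against the other 3 of its state, in 56 pairs of gene and clone, and p-values were adjusted over all genes. In ciliated cells 12 of 28 pairs were called. Called genes numbered 3 in A4 (2.25% of all genes called), 4 in D8 (5.02%), 4 in G7 (18.2%) and 1 in H12 (4.08%). In non-ciliated cells 9 of 28 pairs were called, 1 in control 1 (2.18%), 3 in control 2 (12.9%), 1 in control 3 (2.6%) and 4 in AB (6.06%). Each member was called in at least 1 control clone, and these tests have only 1 clone on one side, so that they compare libraries.

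Several of these differences involved a control that nearly lacked the gene. Fam73a was lower in A4 by a log2 fold change of -5.34 (SE 0.54, adjusted p = 4.48e-05, edgeR with 4 libraries against 12). Tmem185b was lower in G7 by -6.09 (SE 0.85, adjusted p = 1.27e-05) and in control 2 by -5.09 (SE 0.63, adjusted p = 3.75e-06). Elmod1 was lower in AB by -6.01 (SE 1.20) and higher in control 3 by 3.34 (SE 0.66). It was higher in D8 by 3.21 (SE 0.29), but it passed the filter of this test through D8 itself, at 57 to 71 counts per library. The other ciliated controls had 3 to 18 counts per library, so nothing is read from the Elmod1 calls in ciliated controls. Zdhhc14 moved least, and it was called only in A4, where it was higher by 1.06 (SE 0.22, adjusted p = 0.00887).

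Elfn1 was higher in G7 by 2.90 (SE 0.74, adjusted p = 0.00363) and in control 2 by 1.97 (SE 0.63, adjusted p = 0.0153). It was lower in H12 by -5.22 (SE 1.17, adjusted p = 0.00539) and in AB by -4.24 (SE 0.64, adjusted p = 0.000132). Because each control is set against the other 3 of its state, a gene high in a control tends to be low in others. Nothing is therefore read from the opposite signs. Pitx1 was higher in A4 by 2.51 (SE 0.40, adjusted p = 0.00215) and in AB by 3.50 (SE 0.46, adjusted p = 3.94e-05), and lower in control 2 by -3.65 (SE 1.08, adjusted p = 0.00998). Npr2 was higher in D8 by 1.24 (SE 0.22, adjusted p = 0.00115) and lower in G7 by -1.21 (SE 0.30, adjusted p = 0.00316) and in AB by -1.07 (SE 0.23, adjusted p = 0.00272). The remaining calls were Pitx1 and Tmem185b in D8, at -2.36 and 2.58, Elmod1 in G7, at -2.28, and Fam73a in control 1, where it had no counts.

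**Figure D4:**
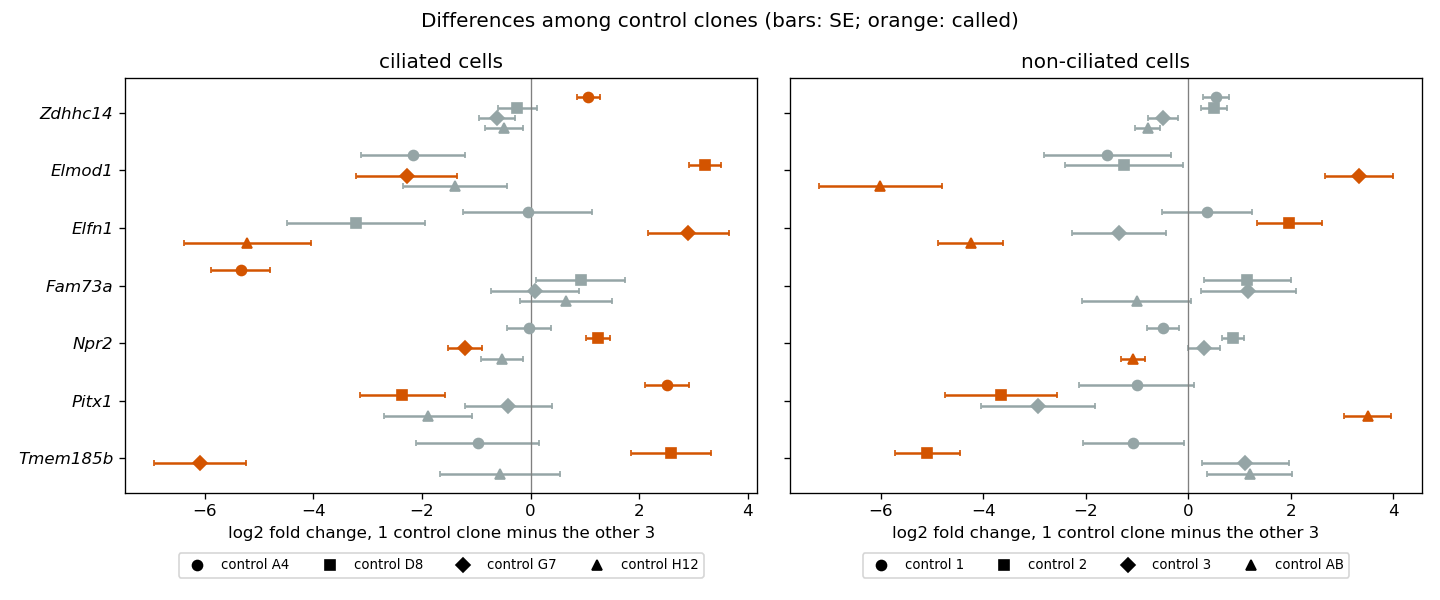
Log2 fold change of 1 control clone against the other 3 of its state, with SE, for each gene (edgeR; orange points were called). Control 1 has 0 Fam73a counts and is not drawn for that gene.

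The spread of log2 CPM over the 4 control clones is given with its rank among all genes tested, as a description, since the choice rests on these control values too. In ciliated cells the SD was 2.69 for Elfn1, larger than in 98.9% of genes tested, 2.65 for Tmem185b (98.8%) and 1.93 for Fam73a (96.9%), where the median gene had 0.31. Zdhhc14 had the smallest SD of the 7, at 0.52 (74.7%), followed by Npr2 at 0.75 (85.6%). In non-ciliated cells 5 members exceeded 98% of genes, and Zdhhc14 (80.6%) and Npr2 (86.7%) were again the least variable of the 7. The mean level of Npr2 exceeded that of 45.1% of genes tested in ciliated cells, whereas each of the other 6 members exceeded at most 7.51% of genes.

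Some control clones were extreme for several of the 7 genes. D8 was the highest ciliated control for Elmod1, Fam73a, Npr2 and Tmem185b, and G7 the lowest for Zdhhc14, Elmod1, Npr2 and Tmem185b. AB was the lowest non-ciliated control for Zdhhc14, Elmod1, Elfn1 and Npr2. Over the 8 controls, centred within each state, the Pearson correlation of log2 CPM between 2 members ranged from -0.81 (Elmod1 with Pitx1) to 0.76 (Elmod1 with Npr2), with 10 of 21 pairs below 0. Over all 13 clones 20 of 21 pairs were above 0, with a median of 0.44, which includes the mutant difference by which the genes were chosen. These values describe 8 or 13 clones that share libraries and scaling.

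Between ciliated and non-ciliated control clones 1 of 7 members was called (10.3% of all genes tested). Npr2 was higher in ciliated controls, 53.8 ± 29.6 against 23.5 ± 9.94 CPM (SD, n = 4 clones, scaled over all controls), a log2 fold change of 1.20 (SE 0.23, adjusted p = 3.35e-05, edgeR). Over the 8 clone means an exact 2-sided permutation test gave p = 0.0857 for this difference, where the smallest possible p is 0.0286. Zdhhc14 was at 1.97 ± 0.851 CPM in ciliated and 3.81 ± 1.31 CPM in non-ciliated controls, with a log2 fold change of -0.95 (SE 0.20, adjusted p = 0.000134, edgeR), under the size limit, and an exact permutation p = 0.0857. Exact permutation p-values of the other 5 genes were 0.486 to 0.971, and 7 genes were compared. These p-values are unadjusted, and none was under 0.05. With clones as samples other fits differed: edgeR on summed libraries called 0 of 7 members, where it called 366 genes higher and 294 lower of 13119, with 2 members and 4213 genes at an unadjusted p under 0.05. Blocking on the clone in voomLmFit called 1 member, beside 531 genes higher and 399 lower of 11856. The permutation treats the 8 as separate clones, although lines recur in both states. Control G7 and control 2 shared little Cdh1 and Tmem185b, and A4 and control 1 shared little or no Fam73a. Other genes differed in order. Among controls of its state, G7 was lowest for Npr2, whereas control 2 was highest for Npr2 and lowest for Pitx1. No match of lines is read from these values. The labels do not give the match, so no paired test was run.

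The mutants were compared by edited gene, which the choice did not use, with 1 Wdr60 clone in each state. In ciliated cells 0 of 5 members tested were called between the Wdr60 clone and both Wdr34 clones (5.67% of all genes were; edgeR). At an unadjusted p under 0.05, 2 of the 5 passed, Pitx1 and Tmem185b, as did 4716 of all 12320 genes, and DESeq2 called 2. Pitx1 entered through Wdr34 clone 3, since the other 2 mutant clones had no counts. Tmem185b had a log2 fold change of -2.03 (SE 0.70, edgeR), but it entered through Wdr34 clone 1, at 10 to 13 counts per library. It had 3 to 6 counts in Wdr34 clone 3 and 0 to 4 in the Wdr60 clone, so nothing is read from this value. In non-ciliated cells 3 of 7 members passed the filter, and these 3 were called lower in the Wdr60 than in the Wdr34 clone (5.62% of all genes were called in either direction). Npr2 was lower by -1.32 (SE 0.15), Tmem185b by -1.92 (SE 0.27) and Zdhhc14 by -1.09 (SE 0.34), each from 4 against 4 libraries by edgeR. Tmem185b, at 4 to 6 counts in the Wdr60 libraries, passed the filter through the Wdr34 clone. Zdhhc14, at 9 to 17 counts there and 16 to 36 in the Wdr34 libraries, did so largely through that clone too. A filter passed in this way favours the order seen, so nothing is read from the calls of these genes. Elfn1, which did not pass, had the opposite order, with 1.01 CPM in the Wdr60 and 0.250 CPM in the Wdr34 clone. With a single clone of each kind these calls measure the spread of technical libraries, and the edited gene and the clone cannot be told apart.

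Genes next to the members on the chromosome are given as a description. The contrast chose the members, and single genes are set beside medians of neighbours, so nothing is read from the gap. For each mutant clone, the median log2 CPM difference from the control mean over tested genes within 2 Mb (10 to 43 genes) ranged from -0.19 to 0.43 over 35 pairs of gene and clone, with a median of 0.01. The members themselves ranged from -4.61 to -0.44 on that scale, with a median of -2.17. For Elmod1, 1 of 25 neighbours was as low in ciliated Wdr34 clone 3, and 1 of 26 in the non-ciliated Wdr34 clone. A cause was not tested. Fam73a was -2.87 in control A4 where its neighbours were at -0.15, and Tmem185b was -3.70 in control G7 where its neighbours were at -0.30 and -3.32 in control 2 where they were at -0.43.

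**Figure D5:**
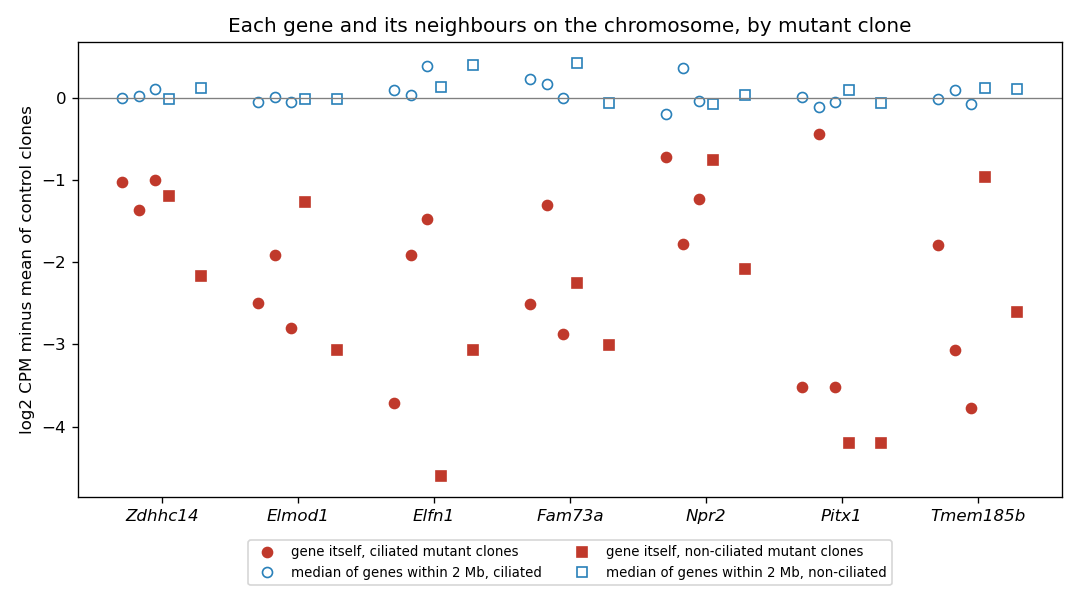
Log2 CPM (prior count 2) minus the mean of the control clones, for each gene (filled) and as the median of tested genes within 2 Mb (open), in each mutant clone. Neighbour medians lie between -0.19 and 0.43 and the genes between -4.61 and -0.44.

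The annotated transcripts of the members share little sequence with other genes, although no reads were examined. Of the 75-base words of each member's longest coding transcript (GENCODE vM21, GRCm38), none of those of Zdhhc14, Elmod1, Elfn1, Fam73a and Npr2 occurs in a transcript of another gene. For Pitx1 3.83% and for Tmem185b 4.58% do, in both cases in an annotated antisense gene. Exons of other genes, antisense except for 1 of the 2 at Pitx1, overlap 5.7% of the exon bases of Npr2, 10.3% of Pitx1 and 7.08% of Tmem185b. The strand setting of the counting is not given in the sources used here, so reads from these overlapping genes cannot be told apart from those of the members.

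The closest relatives of Elmod1 and Fam73a were read in every clone and were not called. Elmod2 was at 26.2–37.4 CPM and Elmod3 at 4.70–15.8 CPM in the 7 ciliated clones. Fam73b, the second mitoguardin gene, was at 39.7–68.4 CPM in ciliated cells. Their log2 fold changes between ciliated mutants and controls were -0.01 (SE 0.10, adjusted p = 0.957), -0.17 (SE 0.20, adjusted p = 0.704) and 0.09 (SE 0.12, adjusted p = 0.707) by edgeR. In non-ciliated cells Elmod2 had -0.25 (SE 0.07, adjusted p = 0.0201, edgeR), under the size limit, while Elmod3 and Fam73b had -0.17 and 0.16.

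Of the natriuretic peptide system, the ligand gene Nppc had at most 2 counts in any clone. Npr1, the receptor of atrial and brain natriuretic peptide, was at 5.26–30.3 CPM in ciliated and 3.47–10.3 CPM in non-ciliated cells. Npr3, the clearance receptor, was at 36.5–594 CPM in ciliated cells, with the highest level in G7. In ciliated mutants neither was called, with log2 fold changes of -0.17 for Npr1 (SE 0.26, adjusted p = 0.779) and -0.78 for Npr3 (SE 0.46, adjusted p = 0.369, edgeR).

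Elfn2, the paralog of Elfn1, had at most 17 counts in a clone, in Wdr34 clone 3. Tmem185a was not matched to a symbol of the files.

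By edgeR 0 genes of the pathway lists were called in either state, of 86 tested in ciliated and 86 in non-ciliated cells. At an unadjusted p under 0.05, 16 and 19 passed, beside 2296 of 11950 and 3637 of 12012 among all genes. Among those tested were 19 DHHC palmitoyltransferases, 10 depalmitoylases and accessory proteins, 15 ELMOD and Arf or Arl genes, 20 Arf GAPs, 12 mitochondrial fusion and fission genes, 4 of the natriuretic peptide system and 5 cGMP targets and phosphodiesterases in ciliated cells. Their median log2 fold changes were -0.11, -0.02, -0.01, 0.01, 0.16, -0.31 and 0.06, against -0.01 over all genes. In non-ciliated cells 19, 10, 15, 21, 12, 3 and 4 genes were tested, and the medians were -0.01, -0.02, 0.04, 0.00021, 0.02, 0.08 and 0.16, against 0.0022. Of the PITX family and hindlimb factors, 1 gene was tested in ciliated cells, at -0.04, and 2 in non-ciliated cells, with a median of -0.57. No group III metabotropic glutamate receptor gene passed the filter.

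Of the cell type markers, Lrp2, which encodes the endocytic receptor megalin of the proximal tubule, was called lower in non-ciliated mutants, by -4.00 (SE 0.73, adjusted p = 0.000891, edgeR with libraries as samples). With clones summed no gene was called in this contrast. The other proximal tubule marker tested, Cubn, was not called there and was at 12.9–23.2 CPM in non-ciliated clones. The median log2 fold change of both markers was -1.85. With only 2 genes this median includes Lrp2 itself, so nothing is read from it about the list. Lrp2 was at 4.48 and 7.88 CPM in the mutants and at 266 (control 2), 92.1 (control 1), 26.2 (control 3) and 11.3 CPM (AB) in the controls. In ciliated cells it was not called, and the mutants, at 14.1, 17.05 and 64.0 CPM, overlapped controls H12 (14.6), A4 (24.5) and D8 (27.9 CPM), with G7 at 464 CPM. Lrp2 was also one of the genes most like Elfn1 over the 13 clones, with a Pearson r of 0.87 after centring within each state, behind Peg3 at 0.89. Among 11703 genes, those most like each other member were Atxn1, Dcdc2a and Gxylt1 for Zdhhc14 (r = 0.85, 0.84 and 0.81), Syvn1, Srrm2 and Atg2a for Elmod1 (0.93, 0.90 and 0.89) and Vamp2, Rell2 and Ube4bos3 for Fam73a (0.91, 0.90 and 0.88). For Npr2 they were Akap12, Ankrd53 and Dlg4 (0.93, 0.90 and 0.90), for Pitx1 Plagl1, Ttc38 and Mboat1 (0.85, 0.83 and 0.81) and for Tmem185b Txlng, Zfp275 and Zfp940 (0.92, 0.90 and 0.89). Gcnt2 was the third for Elfn1 (0.86). These are the highest of many correlations over 13 clones and are given as a description. They include the mutant difference by which the members were chosen, and Dcdc2a was itself called lower in mutants of both states.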

How the data were processed

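Reads in pairs were mapped by the authors with Rsubread (genome GRCm38/mm10) and counted with featureCounts. For each of the 52 libraries, 1 file of raw counts per gene symbol was deposited. They used R 3.4.4 and DESeq2 1.18.1 per the labels. Strand and multimapping settings are not given in the sources used here. Here counts were tested with edgeR 4.0.16 (R 4.3.3; TMM, filterByExpr, quasi-likelihood F test, BH over all genes tested), with libraries as samples. Alternatives used DESeq2 1.42.0, limma 3.58.1 and clones as samples. Depth was 14816218–28084979 counts per library. Bounds for a clone without counts use 3 counts, and they and all precision statements from counts cover counting error only. On simulated ciliated counts of 11950 genes, edgeR recovered 100% of 200 changed genes. The simulation used the same dispersion for every gene and held no differences between clones. It therefore checks the code and does not show how calls behave with clones that differ as these do.

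The genes and lists were chosen with earlier results of these data known. Named beside the 7 genes are the edited genes, close relatives, list genes called between mutants and controls, and the 3 genes most correlated with each member over 13 clone means of log2 CPM (prior count 2) centred within each state. Cell type markers are named to describe the clones. Positions and promoters come from RefSeq GRCm38.p6, in which 24300 symbols (99.5%) were matched.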

Additional observations from a re-analysis of the deposited data

Results flagged for a closer look

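Within groups of 4, a sample was looked at again when its gap to the nearest other sample, as a share of the range, exceeded Dixon's critical value. This held for 10 of 105 groups of clones or libraries (9.52%), where chance alone gives about 1 in 20.

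Of the 10, 3 were control clones. Elmod1 was highest in ciliated control D8, at 4.09 CPM, and in non-ciliated control 3, at 10.8 CPM, and Pitx1 in non-ciliated control AB, at 14.1 CPM.

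The others were single libraries. For Elmod1 they were replicate 4 of ciliated Wdr34 clone 1 (0.281 CPM), replicate 1 of the ciliated Wdr60 clone (0.0592 CPM) and replicate 4 of non-ciliated control 1 (1.94 CPM). For Npr2 they were replicate 2 of ciliated Wdr34 clone 3 (13.1 CPM, the lowest) and replicate 1 of control H12 (44.5 CPM, the highest). Pitx1 was lowest in replicate 1 of non-ciliated control 2 (0.30 CPM), and Tmem185b was highest in replicate 2 of ciliated control A4 (4.27 CPM). The Elmod1 values of both mutant clones rest on 5 counts and 1 count.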

How the results depend on the processing

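All 185 alternative log2 fold changes of members, over 21 settings, were negative. The genes were chosen on the sign of this contrast in the same libraries, so nothing is read from that. Counts of calls changed with the setting. Of 6 members called lower in ciliated and 7 in non-ciliated mutants, a minimum of 10 counts in every library left 1 tested and called in each state. Summing the libraries of a clone, or voomLmFit with the clone as a block, left 0 in each, where the first called 0 genes in all and the second 5 higher and 2 lower of 11950, and 0 higher and 9 lower of 12012. Leaving out a replicate number gave 3 to 4 and 5 to 7, and leaving out a clone 4 to 6 and 3 to 7, the 3 without the non-ciliated Wdr60 clone. Between states of the controls 1 member was called, 2 by adjusted p alone, 3 by DESeq2, 0 with clones summed, 1 by voomLmFit with the clone as a block, 1 to 2 without a replicate number and 1 to 3 without a clone. For single controls, 12 ciliated and 9 non-ciliated calls became 3 and 3 with 10 counts in every library, which left 8 and 12 of 28 pairs tested, and 7 to 9 and 8 to 9 without a replicate number. Between Wdr60 and Wdr34 clones, 0 ciliated calls became 1 with RLE size factors and 2 by DESeq2, and 3 non-ciliated calls became 5 with any gene of 1 count, 1 with 10 counts in every library and 2 to 3 without a replicate number. Members with all mutants below all controls, 2 and 3, became 0 and 1 by library, and 2 to 4 and 3 to 5 without a clone (4 without G7, 5 without AB). The non-ciliated 3 was 4 with RLE size factors or CPM by library total alone, and 2 to 4 without a replicate number. The causes were not tested.

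With the replicate number as a block, 5 and 7 members were called lower in mutants, 1 between states, 9 and 9 in single controls, and 2 between the non-ciliated mutant clones. Deviations of same-numbered libraries correlated with a median of 0.011 (84 pairs, 20 over 0.1, the highest 0.718) and 0.015 (60 pairs, 8 over 0.1). Since not every pair was over 0.1, the numbers were not taken as pairs. Low counts limit Elmod1, Fam73a and Pitx1 most, and 4 libraries of 1 clone cannot show how clones of a genotype vary.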
